A study of Sus scrofa with 6 samples.

Results

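The genes of the DNA replication machinery, which load and fire origins and build and protect the replication fork, were compared between pig epiblast stem cells and pig fibroblasts. Members were taken by gene symbol from a fixed list of 53 genes, of which 47 were found among 20131 genes. MCM5, GINS2, POLA1, PCNA, FEN1 and RRM2 had no row by symbol and were not analysed here. Their absence leaves the MCM2-7 ring and the GINS complex each 1 subunit short, and leaves the sliding clamp, the flap endonuclease and the small ribonucleotide reductase subunit unmeasured.

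The pgEpiSC were stem cells derived from the pre-gastrulation epiblast of pig embryos at embryonic day 10 (4 libraries). The pEF were pig fibroblasts from fetuses at embryonic day 30 (2 libraries). The labels give no allele, transgene or treatment for either group, and whether replicates were separate lines, animals or cultures is not given, so p-values measure the spread between these libraries only. Values were TPM, a transcript abundance scaled by transcript length and library, from strand-specific sequencing of rRNA-depleted total RNA.

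Replication is licensed when the origin recognition complex (ORC), CDC6 and CDT1 load the MCM2-7 helicase onto DNA, a step that geminin blocks outside G1 by binding CDT1. The kinases DDK and CDK then recruit CDC45 and GINS to make the active helicase, polymerase alpha-primase lays down primers, and polymerases delta and epsilon extend them with the help of the PCNA clamp and its loader RFC. Many of these genes are transcribed under E2F control as cells enter S phase, and pluripotent cells are known for short G1 phases. In bulk libraries such as these, fewer cells in S phase and less RNA per cell cannot be told apart.

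Markers of the labelled cell types followed the labels, with POU5F1 and SOX2 not found. All 8 epiblast markers found were called higher in pgEpiSC (summed TPM 427 to 1855 against 0.118 and 0.660), with LIN28A, PRDM14 and TRIM71 listed at 0 in both pEF libraries. None of the 8 reached 1 TPM in pEF. They passed the filter given below through pgEpiSC alone, so the filter set their direction. All 11 fibroblast markers found were called lower (3.83 to 13.0 against 755 to 1736 TPM), although 6 of them reached 1 TPM in a pgEpiSC library. The other fibroblast markers passed the filter through pEF alone. No blood or immune marker reached 1 TPM in any library. In pgEpiSC, 1 of 6 endothelial, 1 of 7 hypoblast, 2 of 8 trophectoderm and 2 of 4 neural markers reached it, with summed levels of at most 1.56, 4.27, 15 and 45.2 TPM; in pEF 1, 1, 0 and 2 did, with at most 2.40, 17.9, 1.63 and 37.0 TPM. The hypoblast marker that reached it in pEF was PDGFRA, at 17.7 and 15.4 TPM, which is also on the fibroblast list. Within these lists FOXA2 and KRT7 were called higher in pgEpiSC and PDGFRA lower. The part of the markers of other cell types in the results below was not tested. The listed genes summed to 157288 to 320206 TPM in pgEpiSC and to 93556 and 145611 TPM in pEF. The main fit was therefore made on the values as deposited and again after median-ratio scaling. This scaling divides each library by its median ratio to the geometric mean of the libraries. A fold, or a median of folds, given below with no scale named is as deposited. The scaling factors were 0.704, 2.17, 1.63 and 0.729 for pgEpiSC libraries 1 to 4 and 0.576 and 0.954 for pEF libraries 1 and 2.

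Replication genes were higher in pgEpiSC as a group, and none was lower on either scale. Of the 47 genes, all of which passed the filter of 1 TPM in at least 2 libraries, 32 (68.1%) rose, 0 fell and 15 were not called as deposited (limma on log2(TPM + 1), Benjamini-Hochberg adjusted p below 0.05 over 10424 genes), where 18.0% of all tested genes were called higher and 9.43% lower. After scaling 40 (85.1%) rose and 0 fell, where 27.0% of all tested genes were called higher and 30.9% lower. The median log2 fold of the 47 was 1.72 as deposited and 1.30 after scaling, and that of all tested genes 0.48 and 0.02. In 45 of the 47 every pgEpiSC library lay above both pEF libraries as deposited (36.6% of all tested genes), and in 42 after scaling (34.5%). The exceptions as deposited were RPA1 and TYMS, and after scaling ORC3, ORC4, POLE3, RPA3 and TYMS. Of the 47, 24 were at 1 TPM or more in both pEF libraries, and 15 of these were called higher as deposited and 17 after scaling. The share called among all genes at that level in pEF was not computed. The 18.0% and 27.0% above also cover genes that passed the filter through 1 group alone. The 11 genes below 1 TPM in both pEF libraries passed the filter through pgEpiSC alone, so the filter set their direction. They were CDC6, CDT1, MCM10, CDC7, CDC45, GINS3, GINS4, POLE, POLE2, POLD2 and TIMELESS. Of these 11, 6 were called higher as deposited and 11 after scaling. The remaining 12 genes, ORC1, MCM2, MCM3 and MCM4 among them, reached 1 TPM in only 1 pEF library, so they too needed pgEpiSC to pass the filter. Of these 12, 11 were called higher as deposited and 12 after scaling.

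Scale-free ranks showed the same ordering. The percentile of a gene's TPM among the tested genes of its own library had a median over the 47 of 75.7, 71.4, 74.5 and 76.9 in pgEpiSC libraries 1 to 4 and of 33.1 and 40.8 in the pEF libraries. Summed over the 47 genes the level was 444, 979, 726 and 469 TPM in pgEpiSC against 92.1 and 172 TPM in pEF, or 0.282 to 0.347% of the listed TPM against 0.0985 and 0.118%. The call count as deposited rested on both pEF libraries and fell sharply without either of them, for the 47 and for all tested genes. Without pgEpiSC replicate 3 it fell from 32 to 19 for the 47 and from 1874 to 1057 for all tested genes. A single remaining pEF library was taken to have the spread of the pgEpiSC libraries. After scaling the count for the 47 and that for all tested genes fell less without either pEF library. The 8 genes called in all 12 such fits, as deposited and scaled, were ORC1, MCM6, PRIM1, POLE2, RFC3, RPA2, TOP2A and WDHD1.

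**Figure D1:**
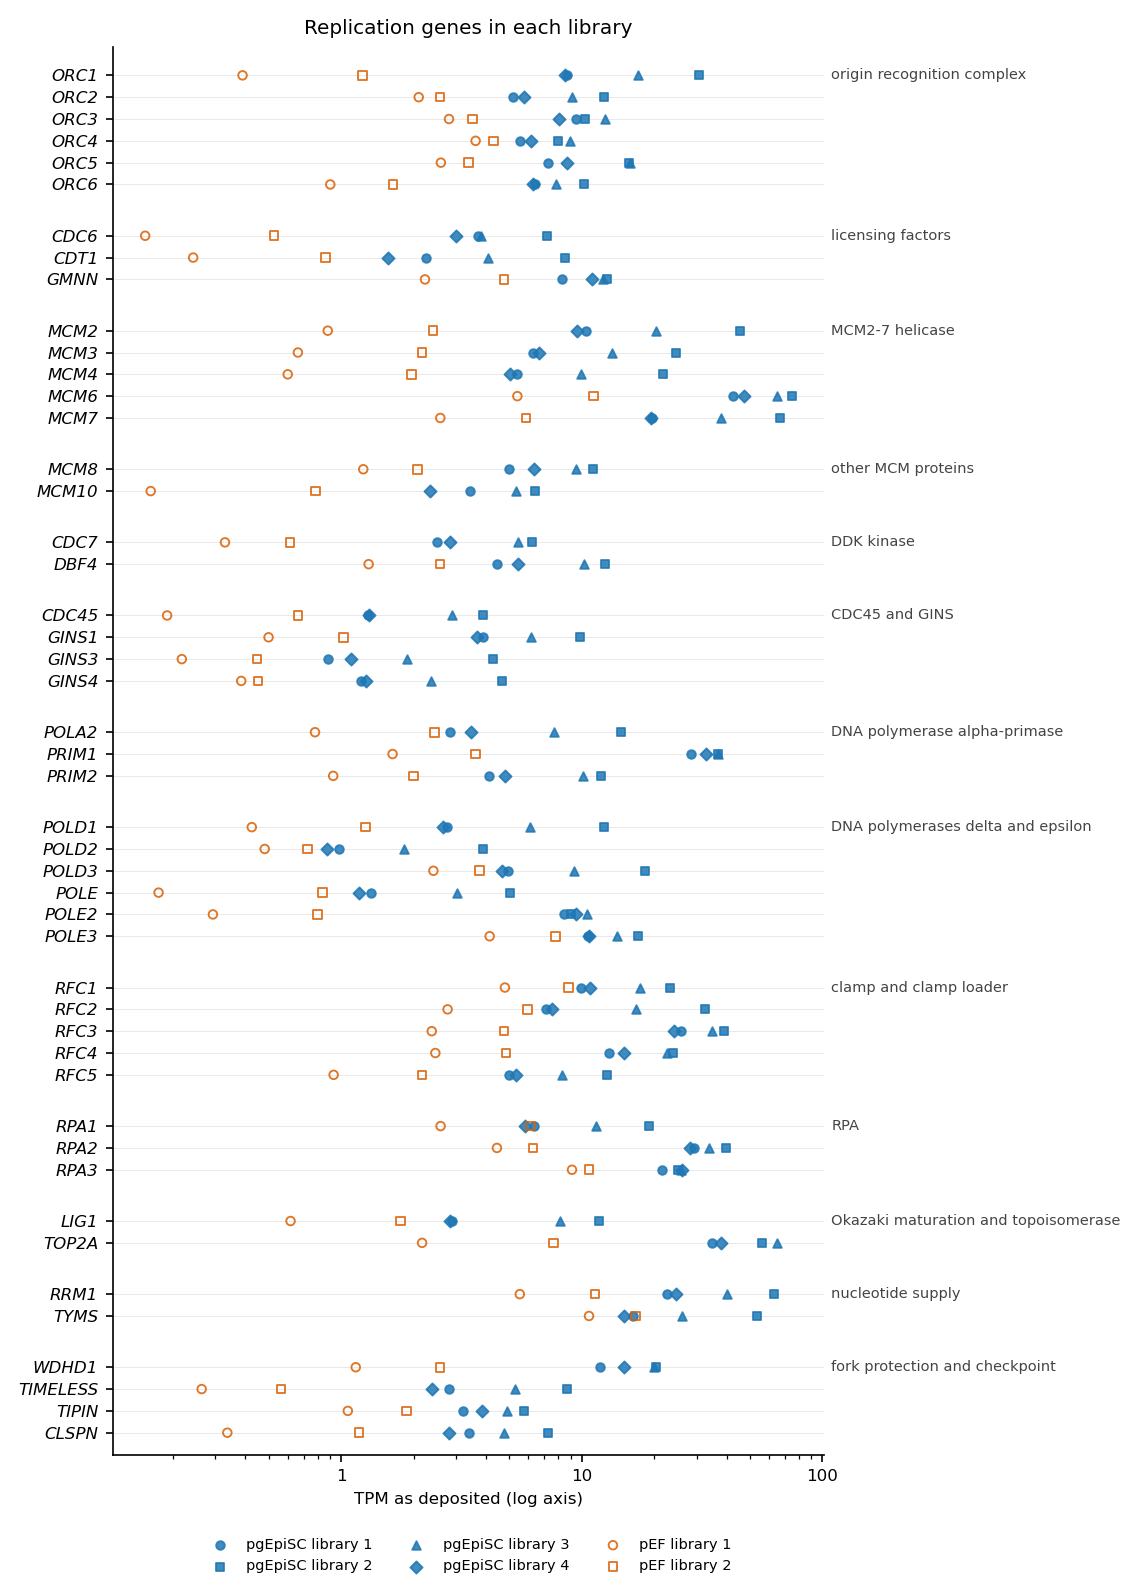
TPM of the 47 replication genes in each library (log axis), grouped by complex; filled blue symbols are the 4 pgEpiSC libraries and open orange symbols the 2 pEF libraries. In 45 rows all blue symbols lie to the right of both orange ones, and RPA1 and TYMS overlap.

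Within the origin recognition complex, which marks origins and loads the helicase, ORC1 stood apart. ORC1, the largest subunit and the one whose level follows the cell cycle (ENSSSCG00000003861), was at 8.68, 30.8, 17.2 and 8.53 TPM in pgEpiSC libraries 1 to 4 and at 0.390 and 1.23 TPM in pEF libraries 1 and 2, the library order used throughout. The groups were 16.3 ± 10.5 (SD, n = 4) and 0.810 ± 0.594 TPM (SD, n = 2), a log2 fold of 3.11 ± 0.57 (SE, adjusted p = 5.28e-05) as deposited and 2.74 ± 0.20 after scaling. The lowest pgEpiSC library was 6.93 times the higher pEF library. ORC6, the small subunit needed for helicase loading, was at 6.42, 10.2, 7.85 and 6.30 TPM against 0.902 and 1.64 TPM, with a fold of 1.93 ± 0.55 (adjusted p = 0.00740). ORC4, an ATP-binding core subunit that was singled out after its values were seen, was at 5.54, 8.0, 8.93 and 6.13 TPM against 3.62 and 4.30 TPM. Its groups did not overlap as deposited but the fold, 0.70 ± 0.54, was not called (adjusted p = 0.345), and after scaling it was 0.16 ± 0.30 with overlapping groups.

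The other core subunits lay between. ORC3 (10.1 ± 1.85 against 3.17 ± 0.506 TPM) and ORC5 (11.9 ± 4.59 against 2.99 ± 0.551 TPM) rose as deposited, by 1.4 and 1.63. ORC2 (8.11 ± 3.35 against 2.34 ± 0.337 TPM) was called after scaling (0.87) and not as deposited (1.38, adjusted p = 0.0574), and ORC3 was not called after scaling (0.88, adjusted p = 0.0637). In pEF library 1 ORC1 was the scarcest subunit, 9.30 times below ORC4, and in library 2 it was 3.50 times below ORC4. In the pgEpiSC libraries 2 and 3 ORC1 was the most abundant subunit. The calls of ORC3, ORC5 and ORC6 were lost without pEF replicate 1 (1.28, 1.49 and 1.70) or 2 (1.53, 1.77 and 2.17), that of ORC5 without pgEpiSC replicate 3 (1.47), and that of ORC3 without pgEpiSC replicate 1, 3 or 4 (1.42, 1.30 and 1.49). Without pEF replicate 2 the scaled calls of ORC2 and ORC5 were lost too (0.67 and 0.92).

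All 3 licensing factors rose. CDC6, the ATPase that joins ORC to load the helicase, was at 3.69, 7.18, 3.8 and 3.0 TPM against 0.154 and 0.527 TPM, the second lowest of the 47 by pEF mean, with a fold of 1.97 ± 0.54 (adjusted p = 0.00553). CDT1, its partner in loading, was at 2.25, 8.51, 4.08 and 1.56 TPM against 0.243 and 0.864 TPM (1.56 ± 0.56, adjusted p = 0.0338). Both were clear of the pEF range in every pgEpiSC library, and CDT1 had the widest spread of the 47 among pgEpiSC libraries, with a highest value 5.45 times the lowest. GMNN, which encodes geminin, the inhibitor of CDT1, was at 8.29, 12.8, 12.3 and 11.1 TPM against 2.23 and 4.76 TPM (1.47 ± 0.54, adjusted p = 0.0360). It was the most abundant of the 3 genes in every library. Calls of all 3 were lost without pEF replicate 1 (1.77 for CDC6, 1.26 for CDT1 and 1.05 for GMNN) or 2 (2.18, 1.85 and 1.89), those of CDT1 and GMNN without pgEpiSC replicate 3 (1.5 and 1.42), and that of GMNN without pgEpiSC replicate 4 (1.47). After scaling CDC6 and CDT1 were called in every such fit, and GMNN was not called without either pEF library or without pgEpiSC replicate 1 or 4 (0.76, 1.08, 0.88 and 0.76 without pEF replicates 1 and 2 and pgEpiSC replicates 1 and 4).

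The MCM2-7 helicase was the complex with the highest median fold on the log2(TPM + 1) scale. All 5 subunits found rose on both scales, with folds of 2.18 to 2.88 as deposited and 1.77 to 2.42 after scaling. MCM2, a subunit phosphorylated by DDK, was at 10.4, 45.7, 20.3 and 9.53 TPM against 0.880 and 2.41 TPM (2.88 ± 0.58, adjusted p = 0.000172). MCM7 was at 19.6, 66.4, 37.9 and 19.5 TPM against 2.58 and 5.86 TPM (2.71 ± 0.54, adjusted p = 0.000168). MCM6 (ENSSSCG00000035564) had the highest mean TPM of the 47 genes in pgEpiSC, at 42.5, 74.7, 64.6 and 47.0 TPM against 5.40 and 11.2 TPM (2.68 ± 0.49, adjusted p = 5.35e-05). The lowest pgEpiSC library thus lay above both pEF libraries for all 3. In pgEpiSC library 3 TOP2A (65.0 TPM) was slightly above MCM6. MCM3 and MCM4 were at 12.7 ± 8.53 and 10.5 ± 7.80 TPM against 1.42 ± 1.07 and 1.28 ± 0.964 TPM. MCM6 was the most and MCM4 the least abundant subunit in every library of both groups, with MCM6 3.43 to 9.30 times MCM4 in pgEpiSC and 9.0 and 5.69 times in pEF. Without pEF replicate 1 the calls of MCM2, MCM3, MCM4 and MCM7 were lost (2.45, 1.91, 1.74 and 2.24), and without pEF replicate 2 that of MCM4 (2.63); after scaling no call of the 5 was lost.

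The MCM relatives MCM8 and MCM10 rose, as did both DDK subunits, which help to turn the loaded ring into an active helicase. MCM10, which helps to open the helicase, was at 3.45, 6.41, 5.31 and 2.33 TPM against 0.162 and 0.783 TPM (1.83 ± 0.55, adjusted p = 0.0107). MCM8, which acts in recombination with MCM9, was at 4.98, 11.1, 9.44 and 6.31 TPM against 1.24 and 2.07 TPM (1.72 ± 0.56, adjusted p = 0.0180). Both groups of libraries were apart for each gene. CDC7, the catalytic subunit of DDK, was at 2.50, 6.20, 5.45 and 2.84 TPM against 0.329 and 0.613 TPM (1.77 ± 0.55, adjusted p = 0.0133), and its activator DBF4 averaged 8.14 ± 3.84 against 1.94 ± 0.903 TPM (1.57 ± 0.56, adjusted p = 0.0334). Per library DBF4 was at 4.44, 12.5, 10.2 and 5.44 TPM against 1.30 and 2.58 TPM, above CDC7 in all 6.

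CDC45 and the GINS genes were among the scarcest. GINS1 was at 3.89, 9.87, 6.17 and 3.68 TPM against 0.500 and 1.02 TPM (1.90 ± 0.57, adjusted p = 0.0102). CDC45 was at 1.29, 3.88, 2.89 and 1.30 TPM against 0.189 and 0.661 TPM, with groups that did not overlap and a fold of 1.17 ± 0.49 that was not called as deposited (adjusted p = 0.0668) and was called after scaling (0.90 ± 0.14, adjusted p = 0.000830). GINS3 and GINS4 followed the same pattern, with 1.07 and 1.14 as deposited and 0.78 and 0.81 after scaling, where both were called. The added 1 in log2(TPM + 1) understates folds at such levels: the ratio of mean TPM was 5.51 for CDC45, 6.10 for GINS3 and 5.69 for GINS4, where the median ratio of the 47 was 5.51. After scaling no call of the MCM relatives, DDK, CDC45 or GINS genes was lost with any library left out. As deposited the calls of MCM8, MCM10, CDC7, DBF4 and GINS1 were lost without pEF replicate 1 (1.49, 1.53, 1.63, 1.25 and 1.68) or 2 (1.95, 2.14, 1.91, 1.89 and 2.12), and those of MCM8, CDC7 and DBF4 without pgEpiSC replicate 3 (1.63, 1.65 and 1.44).

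Among the polymerase genes 2 small subunits stood out. PRIM1 (ENSSSCG00000026055), the catalytic subunit of primase, had the largest log2(TPM + 1) fold of the 47, at 28.4, 36.8, 36.9 and 33.0 TPM against 1.64 and 3.62 TPM (3.31 ± 0.51, adjusted p = 2.89e-06, and 2.80 ± 0.40 after scaling). By the plain ratio of mean TPM, PRIM1 (12.8) came after ORC1 (20.1), POLE2 (17.2), MCM2 (13.1) and CDC6 (13.0). The other primase subunit, PRIM2, was at 4.12, 12, 10.1 and 4.78 TPM against 0.928 and 2.00 TPM (1.75 ± 0.57, adjusted p = 0.0190). POLA2, the accessory subunit of polymerase alpha, averaged 7.13 ± 5.38 against 1.61 ± 1.18 TPM and was called only after scaling (1.04, against 1.48 with adjusted p = 0.0571 as deposited). PRIM1 was the most abundant of these 3 genes in all 6 libraries. Its margin over the scarcest of them was 3.06 to 10.03 times in pgEpiSC and 2.10 and 1.81 times in pEF, so the lowest pgEpiSC margin lay above both pEF margins.

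POLE2 (ENSSSCG00000005008), the second subunit of polymerase epsilon, the leading-strand enzyme, was at 8.43, 9.05, 10.5 and 9.50 TPM against 0.294 and 0.797 TPM (2.76 ± 0.55, adjusted p = 0.000157, and 2.46 ± 0.39 after scaling). POLE2 passed the filter through pgEpiSC alone, so the filter set its direction, also where it was called with each library left out. Its catalytic partner POLE was lower in every pgEpiSC library, at 2.64 ± 1.79 against 0.507 ± 0.470 TPM, and was called only after scaling (0.90, against 1.18 with adjusted p = 0.0779). The histone-fold subunit POLE3, which also serves in a chromatin remodeller, averaged 13.1 ± 3.07 against 5.97 ± 2.59 TPM and was not called on either scale (1.04 and 0.48, adjusted p = 0.137 and 0.202). The scaled ratio of means was 13.2 for POLE2, the largest of the 47, 3.25 for POLE and 1.5 for POLE3. POLD1, the catalytic subunit of polymerase delta, the lagging-strand enzyme, was at 2.75, 12.3, 6.08 and 2.65 TPM against 0.426 and 1.26 TPM (1.74 ± 0.59, adjusted p = 0.0237). The accessory subunits POLD2 (1.90 ± 1.4 against 0.603 ± 0.172 TPM) and POLD3 (9.33 ± 6.42 against 3.09 ± 0.948 TPM) had folds of 0.74 and 1.17 as deposited, not called, and of 0.39 and 0.63 after scaling, called at adjusted p = 0.0491 and 0.0219. The calls of PRIM2 and POLD1 were lost without pEF replicate 1 (1.43 and 1.4), pEF replicate 2 (2.07 and 2.07) or pgEpiSC replicate 3 (1.60 and 1.66). The scaled call of POLA2 was lost without pEF replicate 1 (0.71), that of POLD3 without pgEpiSC replicate 1 or either pEF library (0.63, 0.62 and 0.56), and that of POLD2 without any library but pgEpiSC replicate 3 (0.29 to 0.44).

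RFC is the pentamer that opens PCNA and threads it onto DNA. Its 4 small subunits were called higher and the large one was not, and the subunits were not tested against each other. RFC3 (ENSSSCG00000009349) was at 25.8, 39.1, 34.8 and 24.1 TPM against 2.38 and 4.75 TPM (2.83 ± 0.51, adjusted p = 4.41e-05, and 2.29 ± 0.32 after scaling). RFC4 was at 13.0, 23.8, 22.5 and 15 TPM against 2.46 and 4.84 TPM (2.08 ± 0.53, adjusted p = 0.00267). RFC5 and RFC2 rose by 1.75 and 1.48, from 1.55 ± 0.876 and 4.37 ± 2.26 TPM to 7.82 ± 3.57 and 16.0 ± 12 TPM. RFC1, the large subunit, was at 9.93, 23.2, 17.4 and 10.8 TPM against 4.80 and 8.79 TPM, with groups that did not overlap and folds that were not called (1.04, adjusted p = 0.141, and 0.46 after scaling, adjusted p = 0.105). RFC1 was the most abundant subunit in both pEF libraries and RFC3 in all 4 pgEpiSC libraries. RFC5 was the scarcest in all 6. Without pEF replicate 1 the calls of RFC2, RFC4 and RFC5 were lost (1.03, 1.71 and 1.39), without pEF replicate 2 those of RFC2 and RFC5 (1.92 and 2.11), without pgEpiSC replicate 3 those of RFC2 and RFC5 (1.37 and 1.70) and without pgEpiSC replicate 2 that of RFC2 (1.06). After scaling RFC2 lost its call without pEF replicate 1 (0.71).

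Replication protein A, the trimer that coats single-stranded DNA, had 1 subunit that rose, RPA2, and 2 that were not called. RPA2 (ENSSSCG00000003583), the subunit phosphorylated in the checkpoint response, was at 29.3, 39.6, 33.7 and 28.1 TPM against 4.44 and 6.28 TPM (2.41 ± 0.50, adjusted p = 0.000277). RPA3, the smallest subunit, was at 21.6, 25.2, 25.9 and 26.2 TPM against 9.11 and 10.7 TPM, apart in every library and yet not called (1.24 ± 0.50, adjusted p = 0.0574), and after scaling its groups overlapped (0.64 ± 0.45). RPA1, the large DNA-binding subunit, was at 6.36, 19.1, 11.5 and 5.81 TPM against 2.59 and 6.12 TPM. Its pgEpiSC library 4 lay below pEF library 2, and it was not called on either scale (1.06, adjusted p = 0.155, and 0.52 after scaling, adjusted p = 0.0550). RPA2 was the most abundant subunit in all 4 pgEpiSC libraries and RPA3 in both pEF libraries, and RPA1 was the scarcest in all 6.

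TOP2A (ENSSSCG00000017473), the topoisomerase that untangles sister DNA and peaks in G2 and mitosis, was at 34.9, 56.1, 65.0 and 37.9 TPM against 2.17 and 7.64 TPM (3.19 ± 0.52, adjusted p = 6.69e-06, and 2.66 ± 0.37 after scaling). LIG1, the ligase that seals Okazaki fragments, was at 2.88, 11.8, 8.09 and 2.83 TPM against 0.617 and 1.77 TPM (1.61 ± 0.59, adjusted p = 0.0371). Leaving out pEF replicate 1, pEF replicate 2 or pgEpiSC replicate 3 ended the call of LIG1 as deposited (1.22, 2.00 and 1.44), and no library did after scaling. The lowest pgEpiSC library of TOP2A was 4.57 times its higher pEF library, and that of LIG1 1.60 times.

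RRM1 with TYMS was the group of the 47 that differed least by summed level, with RRM2 not found. The ratio of mean TPM was 4.45 for RRM1 and 2.02 for TYMS, so the low group value does not describe both. Other nucleotide supply genes are given below. RRM1, the large subunit of ribonucleotide reductase, was at 22.6, 63.0, 40.3 and 24.6 TPM against 5.53 and 11.4 TPM (1.98 ± 0.52, adjusted p = 0.00362). Without pEF replicate 1 the call of RRM1 was lost (1.52). TYMS, which makes thymidylate, was at 16.3, 53.7, 26.1 and 14.9 TPM against 10.7 and 16.7 TPM. It was the most abundant of the 47 in pEF and the eighth in pgEpiSC. Its pgEpiSC libraries 1 and 4 lay below pEF library 2, and its folds, 0.81 ± 0.53 as deposited and 0.20 ± 0.25 after scaling, were not called (adjusted p = 0.256 and 0.518). Its percentile within the library was 89.5 to 93.4 in pgEpiSC and 88.1 and 88.2 in pEF.

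Of the fork protection genes WDHD1 (ENSSSCG00000005052), which ties polymerase alpha to the helicase, was at 11.9, 20.3, 20.0 and 14.9 TPM against 1.15 and 2.58 TPM (2.65 ± 0.53, adjusted p = 0.000187, and 2.19 ± 0.31 after scaling). TIMELESS was at 2.81, 8.72, 5.26 and 2.39 TPM against 0.264 and 0.563 TPM (1.91 ± 0.56, adjusted p = 0.00895). TIPIN, its binding partner, averaged 4.41 ± 1.11 against 1.47 ± 0.566 TPM and was called only after scaling (0.71, against 1.13 with adjusted p = 0.124). CLSPN, the claspin that passes the stalled-fork signal to CHK1, averaged 4.56 ± 1.98 against 0.763 ± 0.602 TPM and rose by 1.63 (adjusted p = 0.0251). The pgEpiSC range of all 4 lay above the pEF range. Calls of TIMELESS and CLSPN were lost without pEF replicate 1 (1.76 and 1.28) or 2 (2.07 and 1.99) and that of CLSPN without pgEpiSC replicate 3 (1.60). The scaled call of TIPIN was lost without pEF replicate 1 or 2 (0.65 and 0.71) or pgEpiSC replicate 1 or 4 (0.65 and 0.59).

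**Figure D2:**
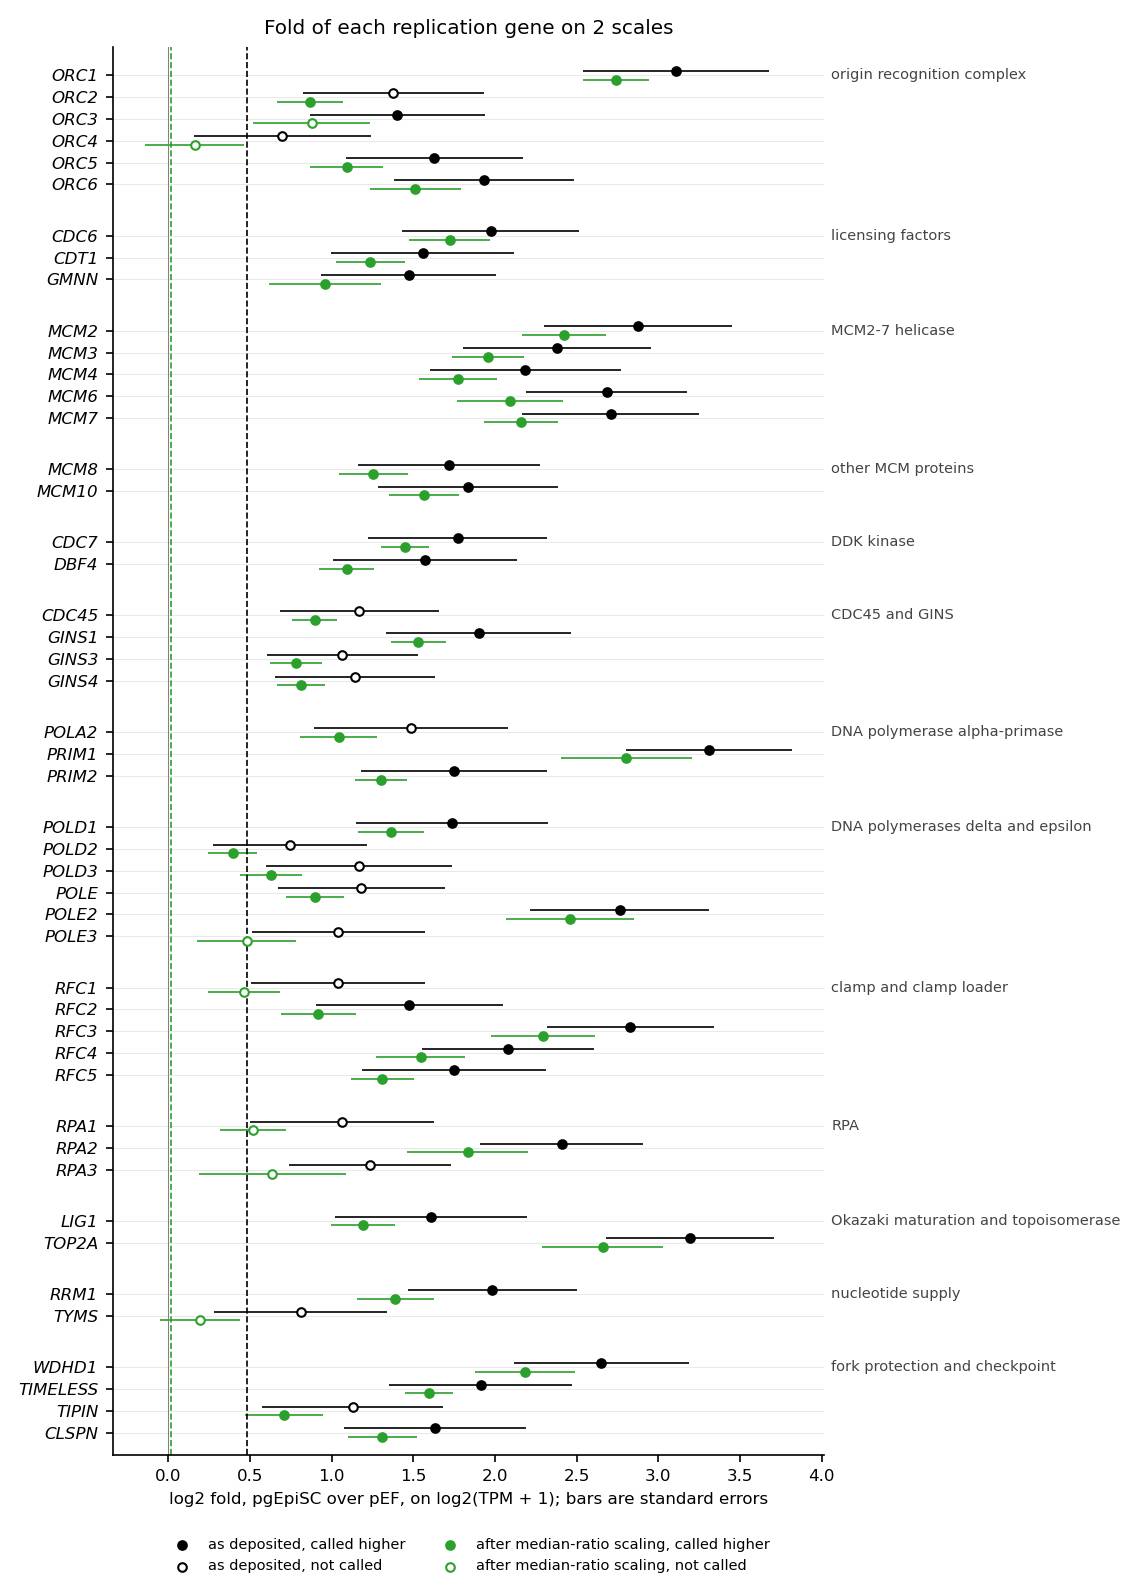
Log2 fold of each replication gene, pgEpiSC over pEF, with its standard error, as deposited (black) and after median-ratio scaling (green); filled points were called, and dashed lines mark the median of all tested genes on each scale (0.48 and 0.02). Every point lies to the right of 0, with PRIM1, TOP2A and ORC1 highest and ORC4, POLD2 and TYMS lowest as deposited.

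Complexes were then compared by their share of the summed TPM of the 47 genes in a library, a measure that does not depend on the scale of the library. The 5 MCM2-7 genes made up 19.0, 23.8, 20.1 and 18.7% in pgEpiSC and 11.0 and 13.7% in pEF. Polymerase alpha-primase made up 7.97, 6.47, 7.53 and 8.79% against 3.63 and 4.71%. These 2 groups, with TOP2A and LIG1 (6.94 to 10.1% against 3.03 and 5.48%) and fork protection (4.29 to 5.11% against 3.06 and 3.61%), held a larger share in each pgEpiSC library than in either pEF library. The reverse order was seen for RRM1 with TYMS (8.43 to 11.9% against 17.6 and 16.4%), for RPA (8.57 to 12.9% against 17.5 and 13.5%), for polymerases delta and epsilon (6.16 to 6.72% against 8.62 and 8.85%) and for RFC (13.4 to 13.8% against 14.5 and 15.5%). Shares of 1 library sum to 100%, so a larger share of one group lowers the others. A group share can also rest on 1 gene. PRIM1 held 28.4, 36.8, 36.9 and 33.0 of 35.4, 63.3, 54.6 and 41.2 TPM of alpha-primase in pgEpiSC. In pEF PRIM1 held 1.64 and 3.62 of 3.34 and 8.07 TPM. TOP2A held 34.9, 56.1, 65.0 and 37.9 of 37.8, 67.9, 73.1 and 40.7 TPM with LIG1 in pgEpiSC. TYMS held 10.7 and 16.7 of 16.2 and 28.1 TPM with RRM1 in pEF. Whether the order of shares holds without these genes or WDHD1 was not tested. The ORC share overlapped (8.94 to 9.84% against 13.5 and 9.71%), as did those of the licensing factors and DDK. MCM8 with MCM10 (1.79 to 2.03% against 1.52 and 1.67%) and CDC45 with GINS (1.57 to 2.32% against 1.4 and 1.51%) were slightly larger in every pgEpiSC library. By the ratio of mean summed TPM the groups ranged from 2.95 for RRM1 with TYMS to 9.0 for TOP2A with LIG1 as deposited, and from 1.77 to 6.31 after scaling.

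**Figure D3:**
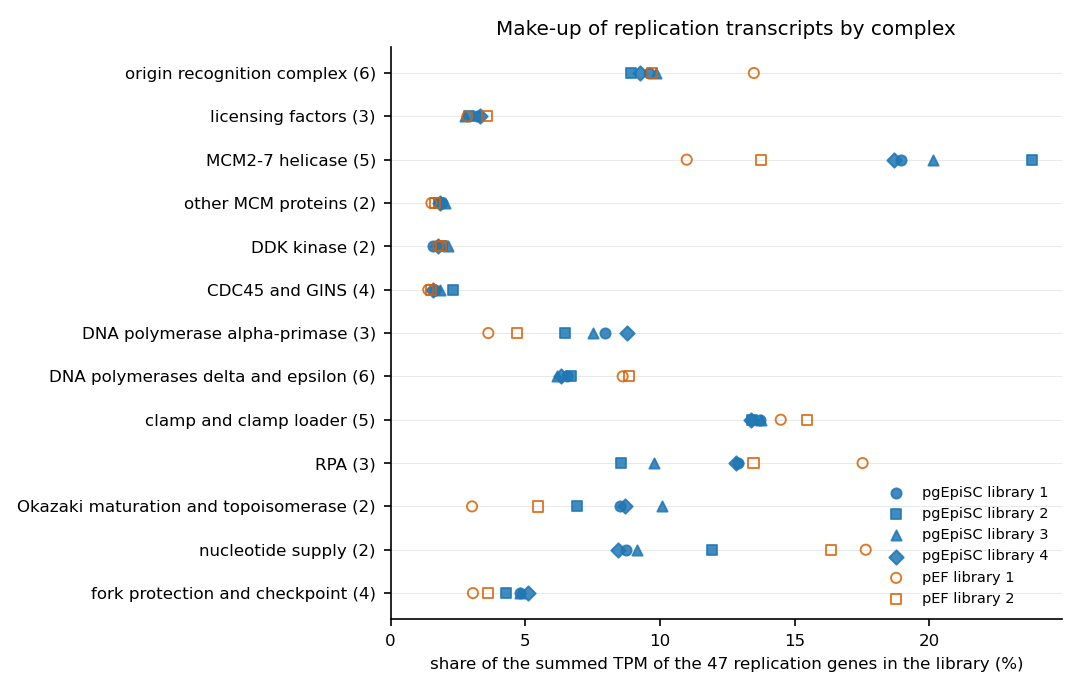
Share (%) of the summed TPM of the 47 replication genes held by each complex in each library, with the number of genes in brackets; filled blue symbols are pgEpiSC and open orange symbols pEF. The MCM2-7 share is 18.7 to 23.8% in pgEpiSC and 11.0 and 13.7% in pEF, and the RRM1 with TYMS share 8.43 to 11.9% and 17.6 and 16.4%.

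The level order of the genes by mean TPM was not the same in pgEpiSC and pEF. How far the order differs between libraries of the same group was not counted, so the shifts below have no such baseline. Ranked by mean TPM among the 47, 44 genes had another rank in pEF than in pgEpiSC, and 12 were shifted by 10 places or more (10 genes after scaling). Of the 12, 6 stood nearer the top in pgEpiSC: ORC1 was at 13 in pgEpiSC and 34 in pEF, POLE2 at 23 and 39, PRIM1 at 5 and 19, MCM2 at 10 and 24, MCM3 at 17 and 29, and WDHD1 at 12 and 22. The opposite shift was seen for ORC4, at 31 in pgEpiSC and 12 in pEF, and for RFC1 (15 and 5), POLE3 (16 and 6), RPA1 (20 and 10), POLD2 (47 and 37) and TIPIN (39 and 27). After scaling 7 genes stood nearer the top in pgEpiSC, CDC6 (37 and 47) now among them, and 3 in pEF. RFC1 (13 and 5), POLE3 (15 and 6) and TIPIN (36 and 27) then shifted by fewer than 10 places. RRM1 was at rank 3 in both as deposited, and after scaling at 4 in pgEpiSC and 3 in pEF. Neighbours in the order can lie within their spread: in pgEpiSC RPA2 (32.7 ± 5.21 TPM) and PRIM1 (33.8 ± 3.98 TPM) did. TPM is scaled by transcript length, so these orders compare levels per length.

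Ratios between 2 genes of a library were tested for 9 pairs in which both genes were found. For 4 pairs the groups did not overlap, each with the smallest p that 15 splits of 4 against 2 allow (exact two-sided permutation test, p = 0.0667, Benjamini-Hochberg adjusted p = 0.150 over the 9), so no pair could pass 0.05. TIPIN over TIMELESS was 1.14, 0.657, 0.927 and 1.61 in pgEpiSC against 4.05 and 3.32 in pEF, with geometric means of 1.03 and 3.66 for these partners of one heterodimer. CDC7 over DBF4 was 0.564, 0.496, 0.536 and 0.522 against 0.253 and 0.238, a narrow range in both groups and a log2 difference of 1.11. ORC6 over ORC2 was 1.24, 0.820, 0.863 and 1.09 against 0.429 and 0.636 (0.92). MCM8 over MCM2 was 0.479, 0.244, 0.464 and 0.662 against 1.4 and 0.861 (-1.34). CDC7 and TIMELESS were below 1 TPM in both pEF libraries, and all 4 differences were smaller with TPM + 1 in both terms. CDC7 over DBF4 then differed by 0.20 (exact permutation p = 0.267), TIPIN over TIMELESS by -0.78 and ORC6 over ORC2 by 0.55 (both p = 0.133), and MCM8 over MCM2 by -1.16 (p = 0.0667).

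The other 5 ratios overlapped between groups. CDT1 over its inhibitor GMNN was 0.271, 0.666, 0.333 and 0.141 in pgEpiSC and 0.109 and 0.181 in pEF, a log2 difference of 1.11 (exact permutation p = 0.267, adjusted p = 0.400). Both genes were higher in pgEpiSC, and pgEpiSC library 4 lay between the pEF libraries in their ratio. CDC6 over ORC1, MCM10 over MCM2, POLE over POLD1 and MCM7 over MCM6 differed by -0.47, -0.07, -0.19 and 0.16 (exact permutation p = 0.200 to 1.0). With TPM + 1 in both terms these differences were -1.14, -1.04, -0.56 and 0.02 (exact permutation p = 0.133, 0.133, 0.0667 and 1.0), and that of CDT1 over GMNN was 0.09 (p = 0.867).

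**Figure D4:**
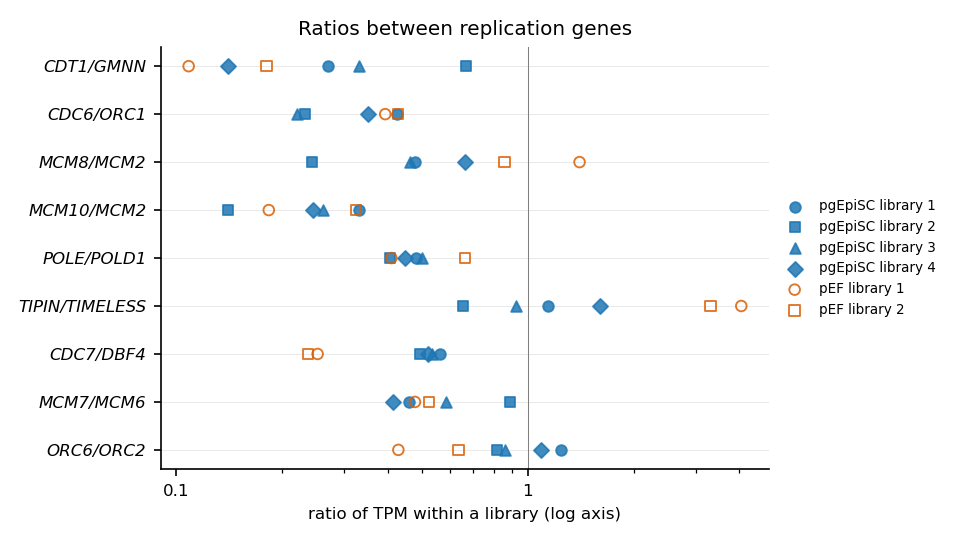
Ratio of the TPM of 2 replication genes within each library (log axis) for 9 pairs; filled blue symbols are pgEpiSC and open orange symbols pEF. The groups are apart for MCM8/MCM2, TIPIN/TIMELESS, CDC7/DBF4 and ORC6/ORC2 and overlap for the other 5.

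Libraries of a group were not alike. As deposited the highest pgEpiSC library was 1.21 (RPA3) to 5.45 (CDT1) times the lowest, with a median of 2.68 over the 47 and 3.57 over all tested genes, and library 2 was the highest for 40 genes. After scaling the range was 1.03 (CDC45) to 3.13 (POLE2), with a median of 1.64 over the 47 and 1.67 over all tested genes. Scaling turned the order of libraries for some genes: POLE2 became 12, 4.16, 6.46 and 13.0 and PRIM1 40.4, 16.9, 22.6 and 45.2, whereas MCM2 became 14.8, 21.0, 12.5 and 13.1. Set against the mean of libraries 1 and 4, scaled library 2 ranged from 0.333 for POLE2 and 0.348 for RPA3 to 1.51 for MCM2 and 1.52 for POLA2, and was below 1 for 29 genes and above 1 for 18. Over all tested genes the 5th to 95th percentile of this measure was 0.414 to 1.99, so POLE2, RPA3, ORC3 and PRIM1 (0.387 and 0.395 for the last 2) lay below it. The standard errors of their scaled folds were 0.36 to 0.45.

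In pEF, library 2 was above library 1 for all 47 genes as deposited, by a median of 2.13 times. After scaling it was above for 37, by a median of 1.29 times, against 1.0 over all tested genes. TOP2A was 3.52 times as high in library 2 as in library 1 as deposited. The 9 mitosis markers tested showed the same order, all 9 being higher in pEF library 2 after scaling, by a median of 2.78 times (summed 11.3 and 33.8 TPM as deposited). Their part in the spread of the replication genes was not tested.

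Other genes of the pathway, from 8 lists of 91 genes of which 81 were found and 74 tested, were counted beside the 47. Of 74, 35 rose, 6 fell and 33 were not called as deposited, and 46, 10 and 18 after scaling, where over all tested genes 18.0% were called higher and 9.43% lower as deposited and 27.0% and 30.9% after scaling. Of 13 other licensing and initiation genes 7 rose and 0 fell (median fold 1.4), led by SKP2, which targets CDT1 and p27 for destruction, at 8.99, 19.8, 14.8 and 8.49 TPM against 0.864 and 1.07 TPM (2.76 ± 0.55, adjusted p = 0.000168), and MTBP, a partner of TICRR in origin firing (2.11, adjusted p = 0.00372). Of 12 other fork and lagging strand genes 4 rose and 8 were not called (median 0.95), with PARP1, a sensor of DNA breaks, at 11.9, 60.2, 28.6 and 15.6 TPM against 1.48 and 3.70 TPM (2.87, adjusted p = 0.000146) and the nuclease DNA2 (2.24, adjusted p = 0.00207). Of 7 other nucleotide supply genes 4 rose, with thymidine kinase TK1 (2.09, adjusted p = 0.00708) and the dUTPase DUT (1.97, adjusted p = 0.00421) first. MTBP (0.364 and 0.666 TPM in pEF) and DNA2 (0.322 and 0.748 TPM) passed the filter through pgEpiSC alone, so the filter set their direction. The counts of these lists hold other such genes, DTL (0.282 and 0.753 TPM in pEF) among them.

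Of 9 chromatin assembly genes 8 rose (median 1.76). NASP, a histone H3-H4 chaperone, was at 82.0, 215, 116 and 75.2 TPM against 1.88 and 4.55 TPM, a fold of 4.81 ± 0.50 (adjusted p = 5.12e-10) and larger than that of any of the 47, and SUPT16H of the FACT complex rose by 2.18 (adjusted p = 0.000990). In the E2F and RB family 3 of 12 rose and 1 fell as deposited (median 0.99), near the shares over all tested genes. After scaling 7 rose and 2 fell (median 0.57), where 27.0% of all tested genes were called higher and 30.9% lower. E2F5, usually classed as a repressor, was at 19.1, 43.1, 34.8 and 25.7 TPM against 0.985 and 1.95 TPM (3.65 ± 0.53, adjusted p = 8.50e-07), the pocket protein RBL1 rose by 1.89 (adjusted p = 0.00907), and RB1 was at 0.311, 0.952, 0.929 and 0.265 TPM against 2.19 and 3.27 TPM (-1.22 ± 0.43, adjusted p = 0.0316). RB1 passed the filter through pEF alone, so the filter set its direction. E2F1, chosen after its value was seen, was at 1.99, 6.55, 5.14 and 2.23 TPM against 1.34 and 3.62 TPM and was not called (0.48). Of 7 translesion polymerases 0 rose and POLK fell (-1.66, adjusted p = 0.0184), from 6.27 and 5.78 TPM in pEF to 0.724 to 2.02 TPM.

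All 9 mitosis markers rose (median 2.42), with CCNB1 at 29.1, 58.2, 46.2 and 32.5 TPM against 1.14 and 5.25 TPM (3.49 ± 0.53, adjusted p = 2.11e-06) and PLK1 rising by 2.75 (adjusted p = 0.000491). Of 5 tested inhibitors of cyclin-dependent kinases 4 fell and 0 rose (median -1.85). CDKN1A, which encodes p21, was at 3.26, 33.2, 3.09 and 1.22 TPM against 143 and 226 TPM (-4.91 ± 0.64, adjusted p = 8.70e-08), and CDKN2A was at no more than 0.0597 TPM in pgEpiSC against 3.75 and 2.55 TPM (-1.99 ± 0.35, adjusted p = 2.97e-05). CDKN2A passed the filter through pEF alone, so the filter set its direction. After scaling the numbers that rose and fell were 10 and 0 for licensing, 6 and 1 for fork, 5 and 0 for nucleotide, 8 and 0 for chromatin assembly, 7 and 2 for E2F and RB, 1 and 3 for translesion, 9 and 0 for mitosis and 0 and 4 for inhibitors. Of the 16 genes named by rule from these lists, the calls of SKP2, NASP, E2F5, CCNB1, CDKN1A and CDKN2A were made with every library left out in turn. Those of MTBP, PARP1, DNA2, TK1, DUT, SUPT16H, RBL1, RB1, POLK and PLK1 were lost without pEF replicate 1 (1.96, 2.41, 2.04, 1.59, 1.45, 1.81, 1.42, -1.43, -1.61 and 2.20). After scaling DUT lost its call without pEF replicate 1 too (1.14). Those of MTBP, DNA2, TK1, RBL1, RB1 and POLK were lost without pEF replicate 2 (2.25, 2.44, 2.6, 2.35, -1.01 and -1.71), RBL1 and RB1 without pgEpiSC replicate 3 (1.74 and -1.32), RB1 without pgEpiSC replicate 1 (-1.13), and RB1 and POLK without pgEpiSC replicate 4 (-1.12 and -1.54).

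**Figure D5:**
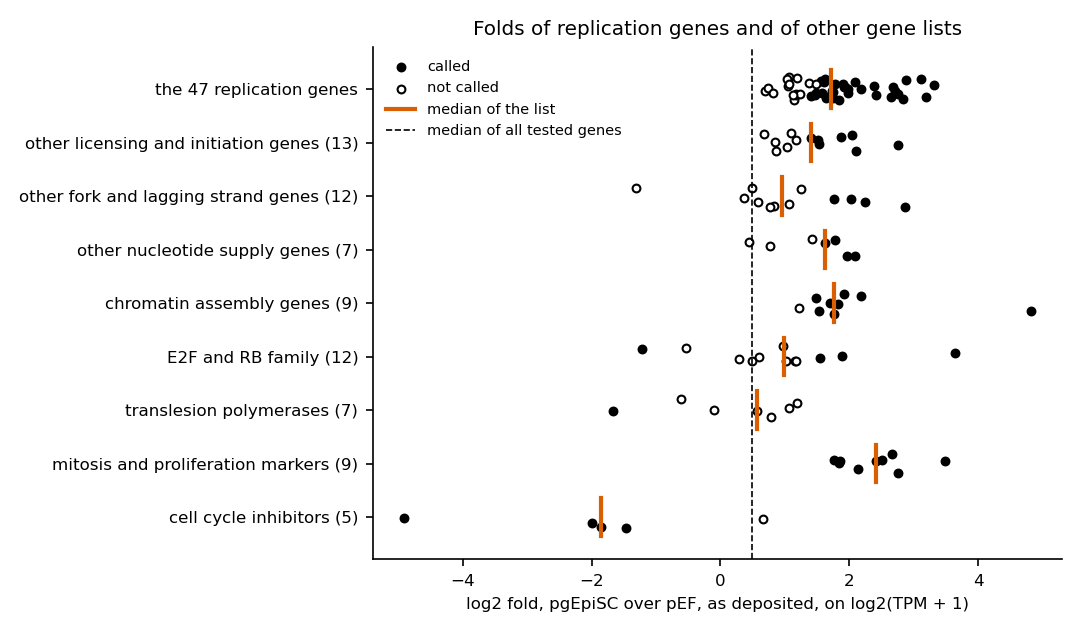
Log2 folds as deposited, pgEpiSC over pEF, of the 47 replication genes and of 8 other lists, with the number of tested genes in brackets; each point is a gene, filled where called, the orange bar is the list's median and the dashed line the median of all tested genes (0.48). The 47 lie between 0.70 and 3.31, NASP is the point at 4.81, and 4 of the 5 inhibitors lie below 0.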

How the data were processed

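Total RNA of 4 pgEpiSC and 2 pEF libraries was rRNA-depleted and sequenced strand-specifically, in pairs of 150-bp reads, per the labels' protocols, which average 127.83 M reads before and 126.01 M after quality filtering; the depth of each library is not given. The authors deposited TPM with 1 column per library, per the file headers. The submitters' processing notes name STAR 2.6.0c and kallisto 0.44.0 without their roles. Neither a genome build nor an annotation is given in the sources used here. TPM keeps no read depth, so no counting intervals are given. Of 20132 rows, 14062 were paired with a symbol, and 2 rows that shared one were summed.

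The 10424 genes that reached 1 TPM in 2 or more libraries were fitted on log2(TPM + 1) with limma 3.58.1 in R 4.3.3, group as the only factor and a variance prior with trend; calls were made below 0.05 after Benjamini-Hochberg adjustment across these genes. The same genes were refitted after median-ratio scaling. Ratios used exact permutation (15 splits). The labels do not say whether same-numbered libraries are paired, so the main fit used no pairing. Complexes are described without tests. The members, lists and pairs were chosen with earlier results of these data known. Members printed per library are the 2 with the largest fold in each complex and the most abundant in each group, with any called lower or of negative fold (there was none); of other lists, up to 2 called genes per direction by fold. ORC4, GMNN, RFC1, RPA1 and E2F1 were added after their values were seen. Alternatives were other pseudocounts (0.1, 5), filters, scalings and variance settings, library weights, a replicate block and each library left out. Python 3.11.15, pandas 2.3.3 and matplotlib 3.10.9 made tables and figures.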

Additional observations from a re-analysis of the deposited data

Results flagged for a closer look

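CDKN1A was at 33.2 TPM in pgEpiSC library 2, far above the 1.22 to 3.26 TPM of the other 3 pgEpiSC libraries. The gap to the next library was 0.936 of the range of the group, above the critical value of Dixon's test for 4 samples. This was on TPM as deposited. Library 2 had the largest scaling factor, 2.17 against 0.704, 1.63 and 0.729 for libraries 1, 3 and 4. Whether the value would still be marked after scaling was not tested. It was the 1 value so marked among 72 genes and ratios tested over the 4 pgEpiSC libraries, and chance marks about 1 in 20. In both pEF libraries the gene was higher still, at 143 and 226 TPM.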

How the results depend on the processing

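Depth per library is unknown and the 2 pEF libraries set most limits. The 32 replication genes called higher became 16 with a pseudocount of 5 and 13 with no filter on low values, and ranged from 8 to 37 as deposited and from 34 to 41 after scaling with each library left out; 0 were called lower in every fit. With the replicate block 37 were called higher, and 37 with the block after scaling. Same-numbered libraries correlated by 0.0982 and 0.172 in their deviations, nothing in the labels pairs them, and the block is only a description. Over all genes, 1874 higher became 967 (pseudocount 5), 717 (no filter), 1185 (mean TPM of at least 5) and 3374 (quantile normalization), and 252 to 2270 as deposited and 1697 to 2900 after scaling with a library left out. The 983 lower became 368 (that same mean filter), 3222 (median-ratio scaling), 2924 (rescaled to a sum of 1000000), 2779 (quantile), 1616 (library weights) and 2619 (scaling with the block), and 555 to 1367 as deposited with a library left out; after scaling it was 2929, 3312, 3005 and 2998 without pgEpiSC replicates 1 to 4 and 2808 and 2737 without pEF replicates 1 and 2. Of the pathway genes, 35 higher became 19 (pseudocount 5), 14 (no filter) and 21 (mean TPM of at least 5), and 5 (without pEF replicate 1) to 40 as deposited with a library left out; 6 lower became 2, 1 and 10 with no filter, the mean filter and scaling, and 2 to 7 as deposited and 10 at most after scaling with a library left out. The cause was not tested.

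The scaled fold of ORC4 was -0.0718 without pEF replicate 2 (limma, adjusted p = 0.903). The log2 difference of MCM10 over MCM2 was 0.18 without pgEpiSC replicate 2 and 0.35 without pEF replicate 2, at lowest -0.48 with a library left out, and -1.04 with TPM + 1 in both terms. That of POLE over POLD1 was 0.16 without pEF replicate 2, at lowest -0.53 with a library left out, and -0.56 with TPM + 1 in both terms. That of MCM7 over MCM6 was -0.0571 without pgEpiSC replicate 2 and at highest 0.31 with a library left out. Promoter motifs were not run, and the ratios RRM2 over RRM1, PRIM1 over POLA1 and PCNA over RFC1 were not computed, because RRM2, POLA1 and PCNA were not found.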
